A study of Equus caballus with 10 samples.

Results

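The AP-1 transcription factors described here are the FOS proteins (FOS, FOSB, FOSL1, FOSL2), the JUN proteins (JUN, JUNB, JUND) and the related factors ATF3 and MAFF. These 9 genes were chosen by name, and all 9 were found among the 29196 genes of the deposited table and passed the filter on low values. RNA was sequenced from primary tenocytes of the equine superficial digital flexor tendon, isolated post-mortem and passaged before use, from 5 Thoroughbred or Thoroughbred-type horses, whose single ages the labels do not give, called donors 1 to 5 below (lines 090811, 130911, 180412, 250718B and CD). Each donor gave 1 library to each of 2 groups, both kept for 14 days in 3D bovine collagen gels. In the first group (inhibitor alone) the cells got PF-06650833 daily at 100 nM, which blocks the kinase IRAK-4. In the second (IL-1β plus inhibitor) they got the same inhibitor and, every 3 to 4 days, IL-1β at 17 ng/ml. Both groups therefore carried the inhibitor, and untreated and IL-1β alone cultures were not analysed here, so neither the effect of the inhibitor nor that of IL-1β without it can be read from these values.

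AP-1 is not a single protein but a family of dimers. FOS, JUN, ATF and MAF proteins share a basic region that contacts DNA and a leucine zipper through which they pair. FOS proteins bind DNA in pairs with JUN proteins, whereas JUN proteins can also pair with each other. In connective tissue cells, IL-1β signals through IRAK-4 and TAK1 to NFκB and to the MAP kinases JNK, p38 and ERK, which phosphorylate AP-1 proteins and the factors that switch on their genes. AP-1 is known there for driving collagenases and other matrix-degrading enzymes together with inflammatory cytokines. FOS and FOSB are immediate-early genes whose messages appear within minutes of a stimulus and decay quickly, whereas FOSL1 and FOSL2 rise later and last longer.

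Values are given as log2 expression on the variance-stabilised scale of the deposited table, on which a gene with 0 reads has the value 3.433. A difference is the mean with IL-1β plus inhibitor minus the mean with inhibitor alone, so positive values are higher with IL-1β. A gene was called differentially expressed at an adjusted p below 0.05 from limma and an absolute log2 difference of at least 1. Estimated reads on genes were between 26429492 and 36093461 per library. Members at these depths rest on different numbers of reads, from 8 to 109 estimated reads per library for FOSB to between 7194 and 17855 for FOSL2. Values of different genes are not scaled for transcript length and are not compared with each other.

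The label of the cells was checked against markers. COL1A1, COL1A2, DCN and LUM had means between 15.64 and 18.74 in both groups, and SCX and MKX were detected in every library, but TNMD was at the value of 0 reads in all 10. Of 11 tenocyte markers tested, 2 were differentially expressed, SCX and MKX, both lower with IL-1β, against 6.68% of all tested genes. With the donor as a replicate block 5 were, all lower, against 8.26%. COL1A1 (-1.38) and COL1A2 (-1.28), called with the block only, were lower in 5 of 5 donors. DCN went the other way, 1.01 higher and in 5 of 5 donors, but was not called (adjusted p = 0.268 from limma, 0.0529 with the block). LUM (0.33) and PDGFRA (0.46) also had higher means and were not called. The means of the other tested tenocyte markers were lower. The summed level of the list was 1012000 to 1522000 normalised counts with inhibitor alone and 331100 to 1329000 with IL-1β plus inhibitor. For leukocyte markers, PTPRC was at 0 reads in 9 of 10 libraries, and CD3E and AIF1 in all 10. The 7 leukocyte markers summed to 52.8 to 1757 normalised counts with inhibitor alone and 170 to 1908 with IL-1β, CD14 ranged from 3.433 to 10.73 over the libraries, and CD68 was higher with IL-1β (6.19 to 6.96 against 7.58 to 9.57). The 5 endothelial markers summed to at most 45.9 normalised counts in any library. The 4 epithelial markers summed to 532 to 1571 against 43.1 to 442, nearly all of it CDH1, and the 4 chondrocyte markers to 4470 to 13020 against 290 to 578, with ACAN and SOX9 lower and COL2A1 at 0 reads in 6 libraries. Their part in the AP-1 differences was not tested, and in bulk RNA fewer cells of a type and less RNA per cell cannot be told apart.

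Of the 9 AP-1 genes, FOSL1 rose with IL-1β and the other 8 did not pass the thresholds. The share of all 17992 tested genes called in either direction was 6.68%, 3.11% being higher and 3.57% lower, so 1 of 9 is close to the background and no statement about the family as a whole follows from that count. With the donor as a replicate block it was again 1 of 9, against 8.26% of all tested genes, 4.01% being higher and 4.25% lower. At an unadjusted p under 0.05 there were 3 of 9, against 29.7% of all tested genes. FOS, FOSL1 and MAFF were higher in all 5 donors, 3 of 9 against 16.0% of all tested genes. No member was lower in all 5. In either direction, 32.7% of all tested genes went the same way in all 5 donors, so 3 of 9 is close to that share. FOSL1 was the member whose groups did not overlap, against 12.7% of all tested genes. The means of 6 members were higher with IL-1β and those of 3 lower, with a median log2 difference of 0.51 over the 9, against -0.0063 over all tested genes.

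**Figure D1:**
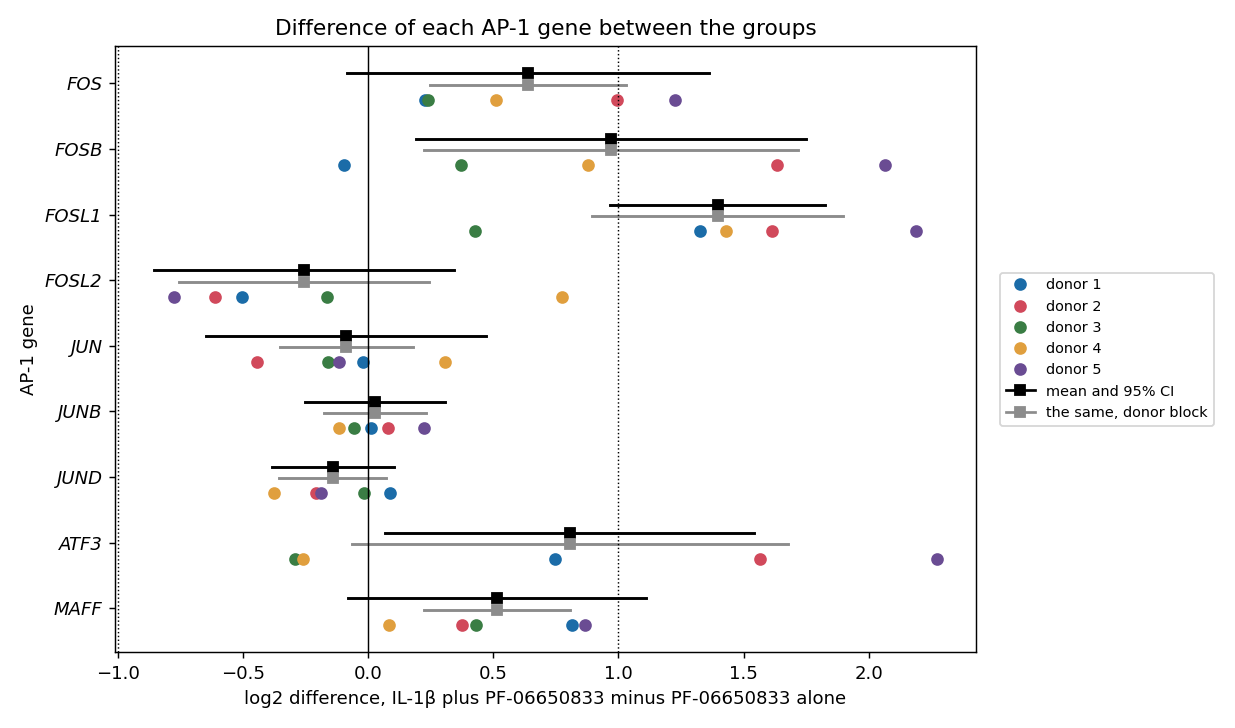
Log2 difference between IL-1β plus inhibitor and inhibitor alone (horizontal axis) for each of the 9 AP-1 genes (vertical axis), with black squares and lines for the mean and its 95% confidence interval from limma, grey ones for the fit with the donor as a block, and coloured points for each donor. FOSL1, at 1.40, is the 1 gene whose mean lies beyond the dotted lines at -1 and 1, and donor 4 lies apart from the other 4 donors for FOSL2.

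Among the FOS proteins, FOSL1 (also called FRA-1), a FOS protein without the strong transactivation domain of FOS itself, showed the largest difference. With inhibitor alone its log2 expression was 10.68, 10.56, 11.02, 10.37 and 10.34 in donors 1 to 5. With IL-1β plus inhibitor it was 12.00, 12.17, 11.44, 11.80 and 12.53 in the same donors. Every library with IL-1β lay above every library without it, and the lowest of the former and the highest of the latter both came from donor 3. The means were 10.59 ± 0.28 (SD, n = 5) and 11.99 ± 0.40 (SD, n = 5), a log2 difference of 1.40 (standard error 0.20, 95% confidence interval 0.97 to 1.83, adjusted p = 0.00120 from limma), or 2.63-fold. The rise was 0.42 in donor 3 and between 1.33 and 2.19 in the other 4. With the donor as a replicate block the interval was 0.89 to 1.90 and the adjusted p 0.00424. FOSL1 was differentially expressed under every alternative run, with the difference between 1.20 and 1.64 and the adjusted p between 0.000197 and 0.0227.

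FOS, the founding member and an immediate-early gene, was at 8.53, 9.36, 9.45, 8.83 and 9.34 in donors 1 to 5 with inhibitor alone. In the IL-1β plus inhibitor group it was at 8.75, 10.35, 9.68, 9.34 and 10.57. It was higher with IL-1β in each donor, by 0.23 in donor 1 and 0.24 in donor 3 up to 1.22 in donor 5, but the groups overlapped. The log2 difference was 0.64 (standard error 0.33, 95% confidence interval -0.086 to 1.36), which did not pass without the donor term (adjusted p = 0.224 from limma). With the donor as a replicate block the interval was 0.25 to 1.03 and the adjusted p 0.0318, below the threshold for p but under the minimum fold change. Leaving out each donor in that fit gave an adjusted p of 0.0311 to 0.112, above the threshold without donor 2, 4 or 5.

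FOSB, the closest relative of FOS and the member with the fewest reads, was at 5.45, 4.82, 5.92, 4.83 and 5.14 with inhibitor alone. With IL-1β plus inhibitor it was at 5.36, 6.45, 6.29, 5.71 and 7.21. It was higher in 4 donors and lower by 0.097 in donor 1, and the groups overlapped. The log2 difference of 0.97 (standard error 0.35, 95% confidence interval 0.19 to 1.75, adjusted p = 0.0902 from limma) did not pass the test, nor did it with the replicate block (adjusted p = 0.0679). Variance stabilisation compresses differences at low values, and on log2(normalised count + 0.5) the difference of FOSB was 1.47. The donor differences of FOS and FOSB had the same order, from donor 1 through donors 3, 4 and 2 to donor 5.

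FOSL2 (also called FRA-2), the other long-lived FOS protein, did not follow FOSL1. With inhibitor alone it was at 14.28, 14.20, 14.49, 13.82 and 13.81 in donors 1 to 5, and with IL-1β plus inhibitor at 13.77, 13.59, 14.33, 14.60 and 13.03. It was lower with IL-1β in donors 1, 2, 3 and 5, by 0.16 to 0.77, and higher by 0.77 in donor 4. The log2 difference was -0.26 (standard error 0.27, 95% confidence interval -0.85 to 0.34, adjusted p = 0.585 from limma). Single donors moved this value both ways. It was -0.048 (adjusted p = 0.929) without the IL-1β plus inhibitor library of donor 5 and -0.44 (adjusted p = 0.256) without that of donor 4. With the replicate block, in fits added after the data were seen, it was -0.13 (adjusted p = 0.768) without donor 5 and -0.51 (adjusted p = 0.0273) without donor 4, still short of the minimum fold change. The difference of log2 FOSL2 minus log2 FOSL1 within a library became smaller with IL-1β in each donor. Its size in any library also depends on transcript length, so only its change is read. It was 3.45 to 3.64 in the 5 libraries with inhibitor alone and 1.77, 1.42, 2.89, 2.79 and 0.51 in donors 1 to 5 with IL-1β plus inhibitor. The change was -0.59 and -0.66 in donors 3 and 4, -1.83 and -2.22 in donors 1 and 2, and -2.96 in donor 5.

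**Figure D2:**
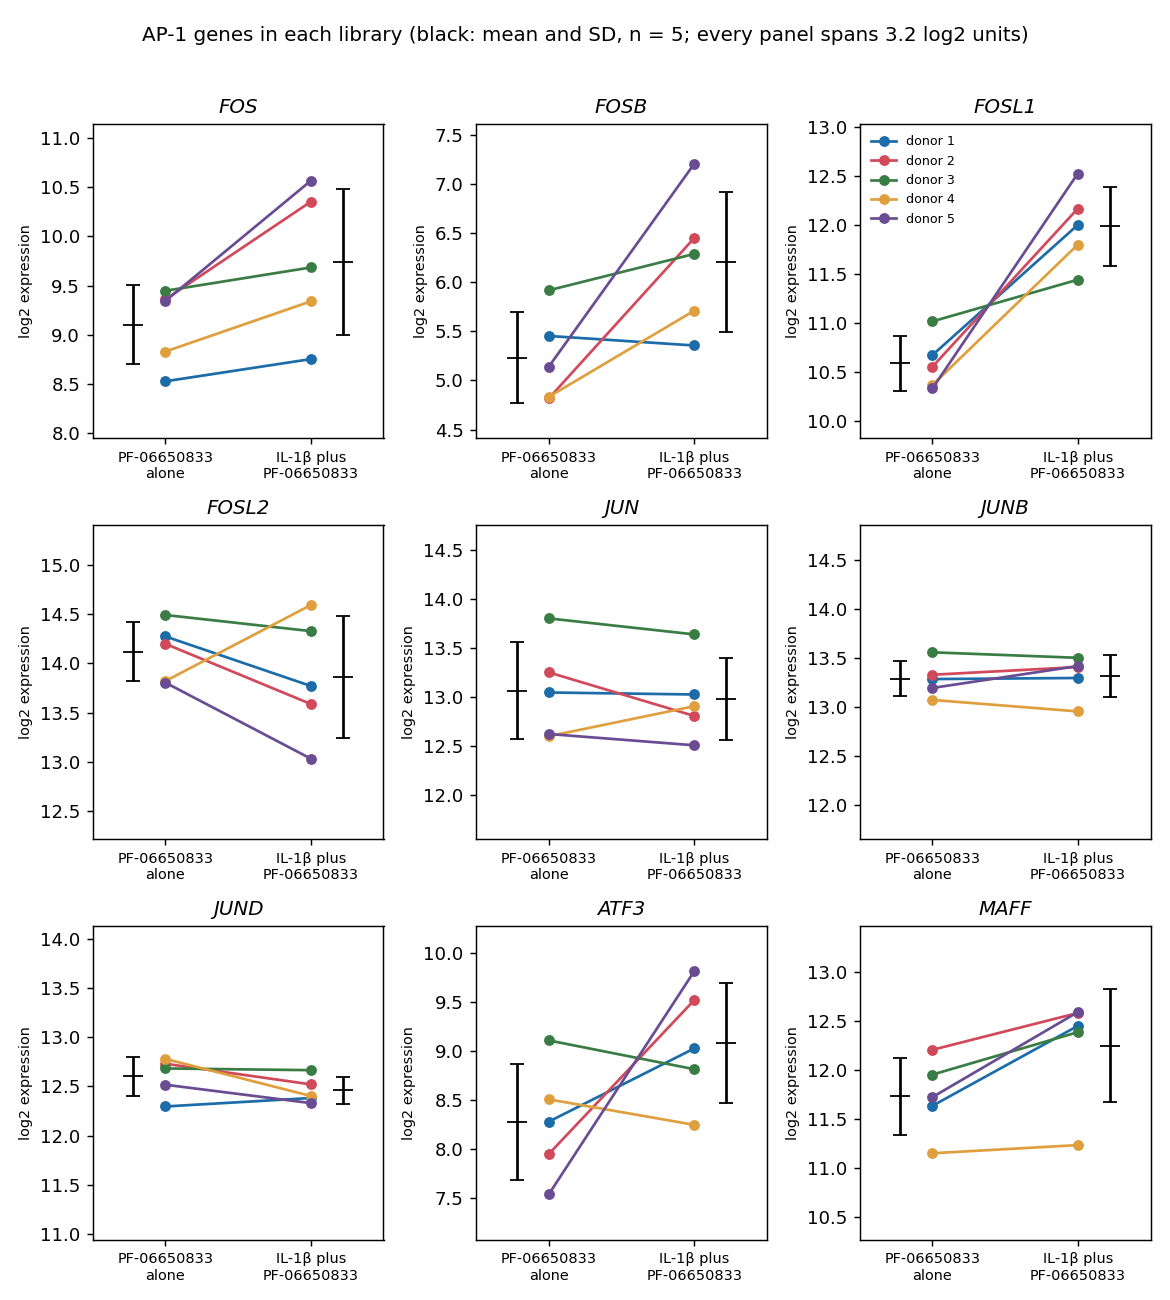
Log2 expression (vertical axis) of the 9 AP-1 genes with inhibitor alone and with IL-1β plus inhibitor (horizontal axis), with a line for each donor and black bars for the mean and SD of 5 libraries. The lines of FOSL1, FOS and MAFF rise in every donor, those of JUN, JUNB and JUND go up in some donors and down in others, and FOSL2 falls in 4 donors and rises in donor 4.

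The JUN genes encode the obligate partners of the FOS proteins, and none of the 3 changed by the thresholds. JUN, the main target of the kinase JNK, was at 13.04, 13.25, 13.80, 12.60 and 12.62 in donors 1 to 5 with inhibitor alone. With IL-1β plus inhibitor it was at 13.02, 12.80, 13.64, 12.90 and 12.51, so that donor 3 was highest in both groups. Its log2 difference was -0.087 (standard error 0.25, 95% confidence interval -0.65 to 0.47, adjusted p = 0.863 from limma). With the replicate block the interval narrowed to between -0.35 and 0.18.

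JUNB, a JUN protein with weaker activity at many promoters, was at 13.29, 13.33, 13.56, 13.08 and 13.20 in donors 1 to 5 with inhibitor alone. It was at 13.30, 13.41, 13.50, 12.96 and 13.42 with IL-1β plus inhibitor. The values of both groups covered almost the same range. The log2 difference was 0.028 (standard error 0.13, 95% confidence interval -0.25 to 0.31, adjusted p = 0.912 from limma). Its sign depended on the scaling of the libraries, being negative under quantile normalisation (-0.018).

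JUND, the JUN protein that most resting cells already make, was at 12.30, 12.73, 12.68, 12.78 and 12.52 with inhibitor alone. It was at 12.38, 12.52, 12.67, 12.40 and 12.33 with IL-1β plus inhibitor. It was lower in 4 donors, by 0.017 to 0.38, and higher in donor 1. The group means differed by -0.14 (standard error 0.11, 95% confidence interval -0.38 to 0.10, adjusted p = 0.440 from limma). The intervals of JUNB and JUND were narrower than that of JUN, whose donors differed more.

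ATF3, a stress-induced factor that pairs with JUN proteins and often represses, rose in some donors and fell in others. It was at 8.28, 7.95, 9.11, 8.51 and 7.54 in donors 1 to 5 with inhibitor alone. After IL-1β plus inhibitor it was at 9.03, 9.52, 8.81, 8.25 and 9.81. It was higher by 0.75 in donor 1, 1.57 in donor 2 and 2.27 in donor 5, and the differences of donors 3 and 4 were -0.29 and -0.26. The SD of its donor differences, 1.13, was the largest of the 9 members. The log2 difference of 0.81 (standard error 0.34, 95% confidence interval 0.069 to 1.54, adjusted p = 0.133 from limma) did not pass. ATF3 was differentially expressed with array weights (1.06, adjusted p = 0.0263) and without the IL-1β plus inhibitor library of donor 4 (1.01, adjusted p = 0.0483). Over all fits that left out a library or donor it ranged from 0.44, without donor 5, to 1.08, with an adjusted p of 0.0483 to 0.458. With the replicate block the adjusted p was 0.165.

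MAFF, a small MAF protein that has no transactivation domain and pairs with other bZIP factors, was at 11.63, 12.21, 11.95, 11.15 and 11.72 with inhibitor alone. After IL-1β plus inhibitor it was at 12.45, 12.58, 12.38, 11.23 and 12.59. It was higher in all 5 donors, by 0.083 in donor 4 and by 0.38 to 0.87 in the others, and donor 4 was lowest in both groups. The log2 difference was 0.51 (standard error 0.27, 95% confidence interval -0.080 to 1.11, adjusted p = 0.233 from limma). With the replicate block the interval was 0.22 to 0.81 and the adjusted p 0.0244, under the minimum fold change as for FOS. Without the IL-1β plus inhibitor library of donor 4 and without a block the difference was 0.77 (adjusted p = 0.0163), and without the inhibitor alone library of donor 4 it was 0.37 (adjusted p = 0.424). Leaving out each donor with the block gave an adjusted p of 0.0113 to 0.0949, above the threshold without donor 1, 2 or 5. Counting by adjusted p alone, FOS, FOSL1 and MAFF passed with the replicate block, 3 of 9 against 22.2% of all tested genes, and FOSL1 passed without it, against 15.5%.

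The donors differed in how far these genes moved. Donor 5 had the largest rise of the 5 for FOS, FOSB, FOSL1, ATF3 and MAFF, and its library with IL-1β was the highest of its group for those 5 genes and the lowest for FOSL2, JUN and JUND. Donor 3 had the smallest rise of FOSL1, and its library with inhibitor alone was the highest of its group for 7 of the 9 members, all but JUND and MAFF. That library was the highest of its group for 23.8% of all tested genes. Over all tested genes, the slope of a donor's differences on the mean of the other 4 donors was 0.551 for donor 3, 0.758 for donor 4, 0.916 for donor 1, 1.05 for donor 2 and 1.17 for donor 5. The donor with the smallest and the donor with the largest FOSL1 rise were thus those with the smallest and the largest slope. These are values of 5 donors, described without a test. Mean correlations across genes of a library to the other 4 of its group were between 0.968 and 0.981. The lowest was that of the IL-1β plus inhibitor library of donor 4. Over all 45 pairs of libraries, within and between the groups, the correlation was 0.936 to 0.985. Such values therefore cannot show whether a library stood apart. Without that library of donor 4, 1422 genes were called, against 1202 with all libraries. The count also rose without the IL-1β plus inhibitor library of donor 3 (1322) or its inhibitor alone library (1251). It fell without any other single library.

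Genes whose pattern was most like that of FOSL1, the member called, were sought among 13856 tested genes with a symbol. Over the 10 libraries, Pearson's r with FOSL1 was 0.987 for C8H18orf32, 0.985 for CCDC85B and 0.982 for SAYSD1. Much of such an r comes from the difference between the groups that these genes share, and after removal of the group means it was 0.924, 0.909 and 0.907. Because the genes were picked as the highest of 13856 over the same libraries, a high remaining r is partly built in. C8H18orf32 rose from 10.73 ± 0.17 to 11.73 ± 0.32 (SD, n = 5 each), a log2 difference of 1.00 (standard error 0.15, adjusted p = 0.00175 from limma). CCDC85B, which encodes a coiled-coil protein, was at 10.16, 10.37, 10.62, 10.09 and 9.97 in donors 1 to 5 with inhibitor alone and at 11.18, 11.29, 10.97, 11.18 and 11.62 with IL-1β. Its log2 difference was 1.01 (standard error 0.15, adjusted p = 0.00153 from limma), with the smallest rise in donor 3 as for FOSL1. SAYSD1 was 0.49 higher (adjusted p = 0.0227), under the minimum fold change. The calls of the first pair sat at that minimum. C8H18orf32 lost its call without the inhibitor alone library of donor 2, 4 or 5 or the IL-1β plus inhibitor library of donor 1, 2 or 5, with a difference down to 0.91. CCDC85B lost it without the inhibitor alone library of donor 1, 4 or 5 or the IL-1β plus inhibitor library of donor 2 or 5, again down to 0.91, while the adjusted p of both stayed below 0.05. Under quantile normalisation the differences were 0.96 and 0.99.

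**Figure D3:**
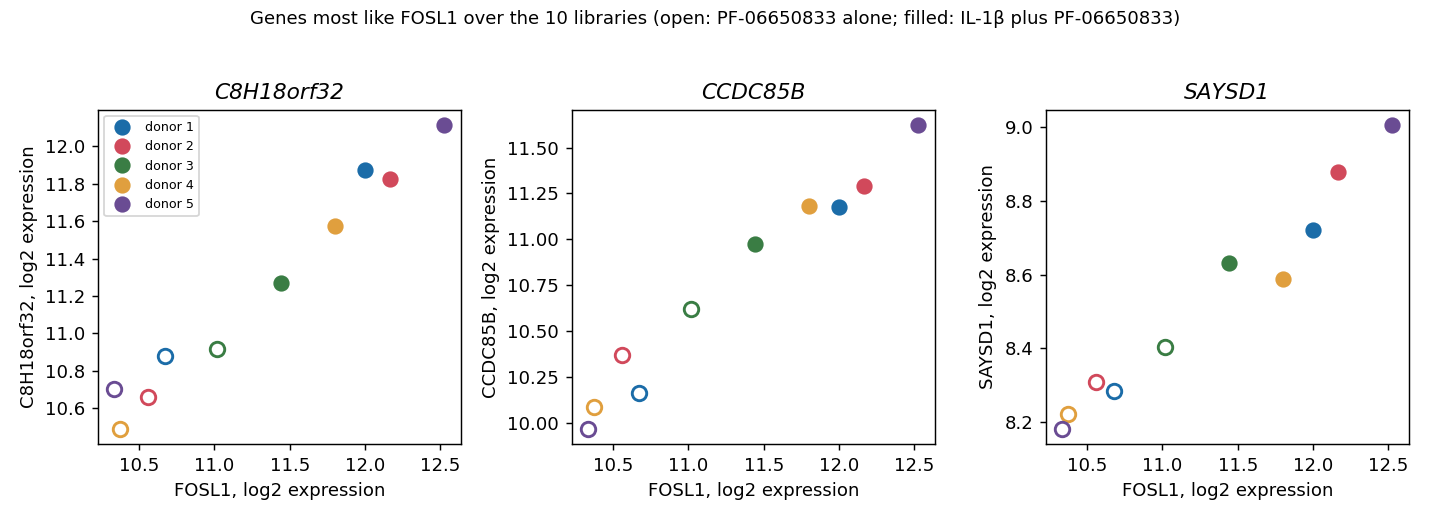
Log2 expression of FOSL1 (horizontal axes) against that of C8H18orf32, CCDC85B and SAYSD1 (vertical axes) in the 10 libraries, open for inhibitor alone and filled for IL-1β plus inhibitor, coloured by donor. In each panel the filled points lie above and to the right of the open ones, and donor 3 has the shortest step between them.

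CCDC85B is the gene next to FOSL1 in the RefSeq annotation of the TB-T2T horse assembly, which is not the build of the reads and was used for gene order only. This was looked at after the values were seen. The gene on the other side of FOSL1, C12H11orf68, was 0.53 higher with IL-1β (standard error 0.098, adjusted p = 0.00482 from limma). Of the 18 neighbours of the 9 AP-1 genes, 10 were tested, and CCDC85B was the 1 called, against 6.68% of all tested genes. CCDC85B had already been picked for its likeness to FOSL1, so its call among the neighbours is not a separate result. MYSM1 beside JUN (-0.54, adjusted p = 0.0159 from limma) and PRDX2 beside JUNB (0.51, adjusted p = 0.0133) also passed on p alone, as did 15.5% of all tested genes. In that annotation CCDC85B and FOSL1 do not overlap, while a long non-coding RNA gene overlaps FOS (LOC111770350, too low to be tested) and another overlaps MAFF (LOC111771053, mean 4.49 and 4.50 in the 2 groups). Whether the quantification used the strand of the reads is not given in the sources used here, so reads of FOS and MAFF and of these transcripts may not be told apart.

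AP-1 proteins also pair with other bZIP factors, and 3 of 23 tested were differentially expressed, 1 higher and 2 lower, against 6.68% of all tested genes (3.11% higher and 3.57% lower). JDP2, which dimerises with JUN and represses AP-1 sites, fell in all 5 donors, from between 12.42 and 12.54 to 11.43, 10.84, 11.67, 11.83 and 10.63 in donors 1 to 5. Its groups did not overlap, and the log2 difference was -1.17 (standard error 0.21, adjusted p = 0.00417 from limma). BATF2, a factor that pairs with JUN proteins and is induced in inflamed cells, had a mean of 6.45 ± 0.31 without IL-1β and 8.97 ± 1.33 with it (SD, n = 5 each), a rise of 2.52 (adjusted p = 0.00936) that was 0.81 in donor 5 and 4.81 in donor 4. CREB5, a CREB-family factor that can pair with JUN, fell from 9.46 ± 0.43 to 8.45 ± 0.33 (SD, n = 5 each), or -1.01 (adjusted p = 0.0121). CREB5 fell short of the minimum fold change under median centring (-0.98), quantile normalisation (-0.99) and array weights (-0.997), and without the inhibitor alone library of donor 1, 3 or 4 or the IL-1β plus inhibitor library of donor 1, 2 or 3, with a difference of -0.91 without that of inhibitor alone donor 4. The median log2 difference of the list was -0.060, and BATF was too low to be tested.

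Upstream of AP-1, no gene of the MAP kinase cascades passed both thresholds. Of 33 tested, 0 were differentially expressed by limma, against 6.68% of all tested genes. With the replicate block it was also 0, against 8.26%. The median log2 difference was -0.021. By adjusted p alone 10 of 33 passed, 4 higher and 6 lower, against 15.5% of all tested genes. The smallest adjusted p belonged to MAPK12, which encodes p38γ, and MAP3K7, which encodes TAK1, the kinase between IRAK-4 and the MAP kinases. MAPK12 was lower in 5 of 5 donors, at 9.93 ± 0.15 without IL-1β and 9.22 ± 0.11 with it (SD, n = 5 each), a difference of -0.71 (standard error 0.10, adjusted p = 0.00156 from limma). MAP3K7 was at 11.66, 11.46, 11.34, 11.84 and 11.55 with inhibitor alone and at 10.91, 10.90, 10.90, 11.05 and 10.73 with IL-1β, so the groups did not overlap. Its log2 difference was -0.67 (standard error 0.10, adjusted p = 0.00215). Of 6 regulators of JUN turnover and activity, 0 were differentially expressed by limma, against 6.68% of all tested genes. With the replicate block it was also 0, against 8.26%. By adjusted p alone 0 passed, against 15.5%. With 6 genes, such counts do not set the list apart from all tested genes. FBXW7, part of the ubiquitin ligase that removes JUN, had a difference of -0.28 (adjusted p = 0.275 from limma).

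Of 26 tested serum response factors and other immediate-early genes, 4 were differentially expressed, 2 higher and 2 lower, against the same 6.68% of all tested genes. The median log2 difference of the list was -0.10. With the replicate block 5 were called, 3 higher and 2 lower, against 8.26% of all tested genes. The gene added by the block was NR4A2, named here after its values were seen. It was 1.599 higher, in 5 of 5 donors, and its groups did not overlap (adjusted p = 0.105 from limma, 0.0324 with the block). IER3, an early-response gene that NFκB also induces, rose from 11.06, 11.53, 11.92, 11.03 and 11.06 in donors 1 to 5 to 15.65, 15.83, 14.58, 14.46 and 16.38. The log2 difference was 4.06 (standard error 0.36, adjusted p = 1.16e-04 from limma), again smallest in donor 3 and largest in donor 5. NR4A3, an orphan nuclear receptor, rose by 1.30 (standard error 0.38, adjusted p = 0.0395) in 5 of 5 donors. KLF4, a zinc-finger factor, had a difference of -1.05 (adjusted p = 0.00487), and GADD45A, a stress gene that activates p38 and JNK, one of -1.06 (adjusted p = 0.00730), both lower in 5 of 5 donors. These 3 calls lay close to a threshold. NR4A3 lost its call without the inhibitor alone library of donor 3 or 4 or the IL-1β plus inhibitor library of donor 1, 2 or 5, with an adjusted p of 0.0774 to 0.0938, and with no mean-variance trend (adjusted p = 0.0501). KLF4 lost it without the inhibitor alone library of donor 3 or 4 or the IL-1β plus inhibitor library of donor 1, down to -0.92, and GADD45A without the inhibitor alone library of donor 3 or 4 or the IL-1β plus inhibitor library of donor 2 or 5, up to -0.91. With array weights KLF4 was at -0.96 and GADD45A at -0.99, short of the minimum fold change. With the replicate block NR4A3 and GADD45A were called whichever donor was left out. EGR1, an immediate-early gene often read beside FOS and named here after its values were seen, was 0.47 higher, was lower in 1 donor, and did not pass (adjusted p = 0.254).

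Genes known to carry AP-1 sites in their promoters were the list with the most calls. Of 19 tested, 10 were differentially expressed and all 10 were higher with IL-1β, against 3.11% of all tested genes called higher, with a median log2 difference of 1.31. Many of them also carry NFκB sites, and the list was written with earlier results of these data known, so its direction is not independent evidence. IL11, a cytokine of the IL-6 family, rose from 14.01, 12.97, 13.56, 12.54 and 11.70 in donors 1 to 5 to 16.82, 16.59, 15.59, 15.90 and 17.34, a log2 difference of 3.49 (standard error 0.44, adjusted p = 7.01e-04 from limma). CCL2, which attracts monocytes, rose from 12.65 ± 0.61 to 15.05 ± 0.76 (SD, n = 5 each), a log2 difference of 2.40 (adjusted p = 0.00218). IL6 and CXCL8 had the smallest adjusted p of the list, with log2 differences of 8.79 and 7.65. In donor 3 the rise of IL6 was 4.54, from 9.42, and that of CXCL8 was 5.15, the smallest of the 5 donors for both, as for FOSL1. The other 6 genes called were MMP1, MMP3, MMP9, PLAUR, TIMP1 and VEGFA. Of these, PLAUR lay at the minimum fold change (1.00), and TIMP1 and VEGFA near the threshold for p (adjusted p = 0.0450 and 0.0384 from limma). The groups overlapped for MMP1, MMP9, TIMP1 and VEGFA. The list had 8 calls under quantile normalisation and 9 with no mean-variance trend. MMP13, a collagenase with a well-known AP-1 site, was 2.05 higher but varied between donors and did not pass (standard error 0.81, adjusted p = 0.113), and CD44, the hyaluronan receptor, was lower in 5 of 5 donors (-0.83, adjusted p = 0.0103), under the minimum fold change. These last 8 were named after their values were seen.

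**Figure D4:**
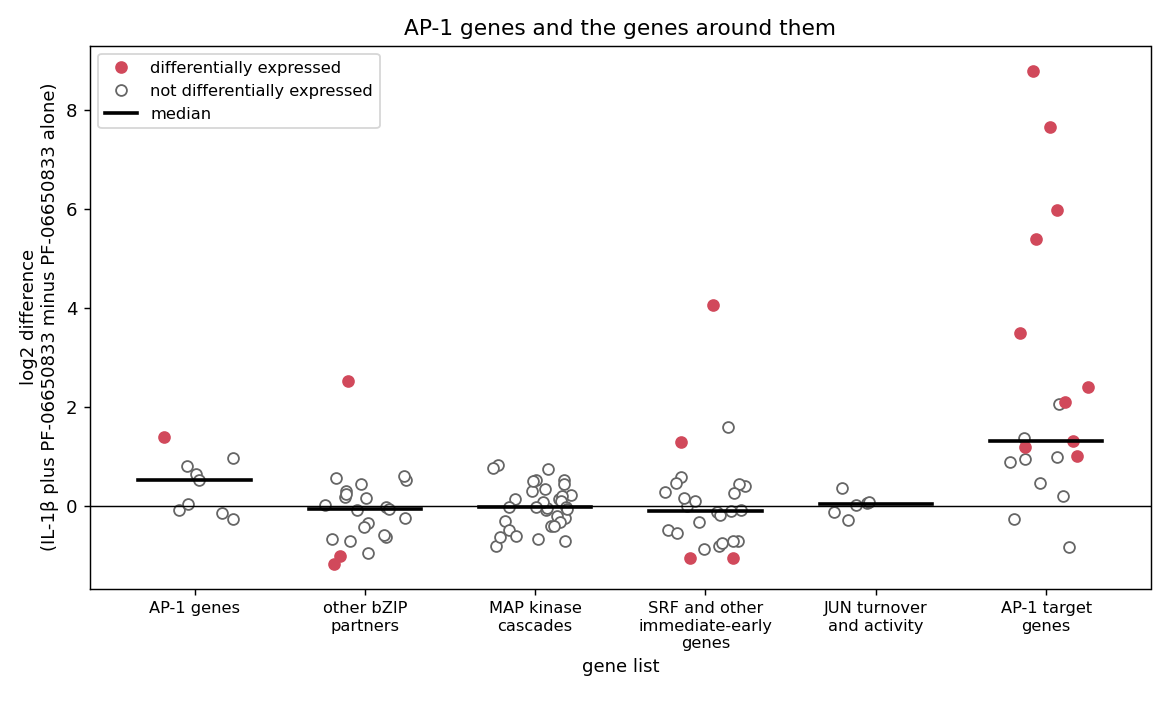
Log2 difference between IL-1β plus inhibitor and inhibitor alone (vertical axis) of each tested gene in 6 lists (horizontal axis), red where differentially expressed, with a bar for the median of the list. The AP-1 genes show 1 called gene, FOSL1, and the AP-1 target genes show 10, all above 0.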

How the data were processed

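RNA-seq libraries of equine tenocytes given PF-06650833, without or with IL-1β, were compared, 5 per group. According to the labels and methods, the authors checked reads with FastQC (version 0.11.9), quantified them on the EquCab3.0 transcriptome with Salmon (version 1.8) with GC-bias correction, and summed them to genes with tximport. Deposited by the authors were log2 values, normalised between libraries, and the authors' own tests used DESeq2 (version 1.36). The transformation is not named. It was recognised as variance stabilisation from the values, whose lowest value, 3.433, is shared by all libraries. All 10 columns of values were used.

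Linear models with a mean-variance trend and without a donor term, since the study names none, were run in R version 4.3.3 using limma (version 3.58.1) on the 17992 genes above 3.433 in at least 5 of 10 libraries. Adjusted p-values are Benjamini-Hochberg over all of these genes. Libraries of the same donor come from the same horse, and their deviations from the group means correlated across genes (0.367 to 0.506 in the 5 pairs, mean -0.107 in the other 20), so the fit with the replicate block is given where it matters. Normalised counts were recovered by inverting the transformation, and 1 read was located from the spacing of low values, with 64.1% to 82.8% of them within 0.15 of a whole read (30% if evenly spread), so estimated reads are approximate. The fit was tested on simulated data drawn without a donor effect, so that test does not cover the pairing of libraries by donor.

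The members, gene lists and tests were chosen with earlier results of these data known. Genes named are the 9 members, up to 4 called genes of each other list by smallest adjusted p (or 2 where none was called), and the 3 genes most like each called member. A gene that this rule names is not reported here. Alternatives were the replicate block, the recovered scale, other filters, quantile normalisation, median centring, other variance models and thresholds, and leaving out each library or donor, the last also with the block, which was added after the data were seen. All 9 members matched the RefSeq table by symbol. The libraries were deposited after normalisation, so raw counts were not tested.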

Additional observations from a re-analysis of the deposited data

Results flagged for a closer look

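In groups of 5 libraries, a library far from the other 4 was found in 2 of 54 groups examined, where chance gives about 2.7. In the IL-1β plus inhibitor group, donor 4 had MAFF at 11.23 against 12.38 to 12.59 in the other 4 donors. Without that library the log2 difference of MAFF was 0.77 (adjusted p = 0.0163 from limma), and without both libraries of donor 4 it was 0.62 (adjusted p = 0.0158). In the inhibitor alone group, donor 2 had JDP2 at 12.54 against 12.42 to 12.45 in the others, a gap that is small beside the differences of JDP2 between the groups, -0.60 to -1.82.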

How the results depend on the processing

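FOSL1 was called under all 33 alternatives, the 1 member called in the report. By adjusted p alone, 2782 genes were called over the whole table, 15.5% of those tested. So were 6 of 23 other bZIP partners, 10 of 33 MAP kinase genes and 8 of 26 immediate-early genes. Of 19 AP-1 target genes, 11 were called higher and 1 lower. With the replicate block and adjusted p alone, 3996 genes and 3 AP-1 members were called, adding FOS (0.64) and MAFF (0.51). The replicate block changed no other call of a member. At an adjusted p below 0.01 there were 719 genes. With array weights 2 members were called, adding ATF3 (1.06). JUNB reversed under quantile normalisation (-0.018). When a library or donor was left out, the genes called numbered 762 to 1422 (762, 790 and 777 without donors 1, 2 and 5), the members 1 to 2, ATF3 ranged from 0.44 to 1.08, JUN from -0.25 to 0.097 and JUNB from -0.026 to 0.12. In the donor fits with the replicate block, added after the data were seen, JUN reached 0.0018 without donor 2 and JUNB -0.021 without donor 5. Quantile normalisation and median centring moved the median of all genes by -0.0045 and 0.030. Depth limits FOSB most, at 8 to 31 estimated reads in the inhibitor alone group. The calls of CREB5, KLF4, GADD45A, NR4A3, C8H18orf32 and CCDC85B were lost under some alternatives. The list of AP-1 target genes had 8 to 12 calls over the 10 alternatives in which the lists were counted. The cause of these changes was not tested.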

Other observations

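Some AP-1 genes varied together within the groups and others did not. Over the 10 libraries, after removal of the group means, Pearson's r between members was positive for 26 of 36 pairs and negative for 10, from -0.44 to 0.845. It was highest, at 0.845, for JUNB and MAFF, 0.768 for FOSL1 and ATF3, 0.732 for FOS and FOSB and 0.704 for FOSL2 and JUN. FOSL1 and FOSL2, the long-lived FOS genes, had an r of -0.425. For ATF3 and JUNB the differences of the 5 donors correlated at 0.967, although the mean of JUNB hardly moved. These are descriptions over libraries that share donors and normalisation, with no test. Among the bZIP partners, NFE2L2, the antioxidant regulator that small MAF proteins pair with, was 0.57 higher (adjusted p = 0.00398 from limma). MAFK, a close relative of MAFF, was 0.61 higher (adjusted p = 0.0193). Each rose in 5 of 5 donors and was under the minimum fold change. NFE2 went the other way, at -0.96 (adjusted p = 0.0486), lower in 5 of 5 donors and also under that minimum. By adjusted p alone, the list had 3 genes higher and 3 lower. These genes were picked after their values were seen.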
